A study of Mus musculus with 4 samples.

Results

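Apical radial glia are the neural stem cells of the embryonic brain. Their bodies lie in the ventricular zone, their apical ends line the ventricle, and a long fibre reaches the outer surface of the brain. They divide at the ventricle, renew themselves and give rise to neurons, either directly or through basal intermediate progenitors. The genes described here are 10 markers of these cells (Pax6, Nes, Vim, Fabp7, Slc1a3, Prom1, Emx2, Lhx2, Glul and Dbi), chosen by name. All 10 were found among the 20421 genes of the table.

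Brains were taken at embryonic day 15 from C57BL/6 mice labelled FOXM1f/+;Nestin-Cre or WT. The label names a FOXM1 allele, which the series' title calls the human gene, and Nestin-Cre, a Cre recombinase under control of nestin sequences that is active in neural progenitors. The sources used here do not say how either allele was built. GEO lists 4 samples, 2 per genotype, and the table holds 1 column of reads for each genotype. Its header gives the genotype and a code, F1 for FOXM1f/+;Nestin-Cre and C2 for WT. Which of the samples a code stands for could not be worked out. No label says if a column pools embryos. Among the WT samples, the titles name nestin for one and foxm1 for the other, so the WT column may carry either allele. Each column is called a library here, transgenic or WT. With 1 library per genotype no difference below has a replicate check and none was tested. The intervals are 95% exact Poisson intervals for levels and exact conditional (Clopper-Pearson) intervals for ratios. They cover counting error only, and the spread between embryos was not measured. A gene is called higher or lower in a count from a ratio of at least 1.2-fold.

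The transgenic library held 17856653 reads in the table and the WT library 17543705. Foxm1 itself, the mouse gene, had 72.2 CPM (reads scaled to the library total) in the transgenic library and 64.9 CPM in WT, a ratio of 1.11 (1.03 to 1.21); no value here measures the human gene. The libraries differed in sex content, with 9628 Xist reads in the transgenic and 5 in the WT library, and with 0 reads of Eif2s3y, Kdm5d, Ddx3y and Uty in the transgenic library against 202 to 1266 in the WT library. They also differed in choroid plexus content, since the 7 epithelial markers summed to 24.6 CPM in the transgenic library and 720 CPM in WT. The cortical marker Emx1 was present in both, at 141 CPM in the transgenic library and 119.7 CPM in WT.

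The start regions of 5 markers are shown first, since the markers with the highest ratios can then be set beside one with a ratio near 1. Each window runs from 250 bases before to 50 bases after a RefSeq start site on GRCm38.p6, 5′ to 3′ on the gene's strand. Capitals mark each match to 1 of 7 short motifs, or to its reverse complement. Vim lies at chr2:13574061-13574360 on the plus strand, Emx2 at chr19:59458440-59458739 on the plus strand, Nes at chr3:87970843-87971142 on the plus strand, Fabp7 at chr10:57784673-57784972 on the plus strand, and Slc1a3 at chr15:8710758-8711057 on the minus strand.
Vim: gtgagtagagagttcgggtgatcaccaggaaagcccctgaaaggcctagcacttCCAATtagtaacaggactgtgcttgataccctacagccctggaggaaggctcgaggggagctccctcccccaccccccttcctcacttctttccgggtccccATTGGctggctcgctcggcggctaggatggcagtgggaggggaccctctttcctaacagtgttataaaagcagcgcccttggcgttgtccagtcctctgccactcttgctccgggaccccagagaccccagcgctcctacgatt
Emx2: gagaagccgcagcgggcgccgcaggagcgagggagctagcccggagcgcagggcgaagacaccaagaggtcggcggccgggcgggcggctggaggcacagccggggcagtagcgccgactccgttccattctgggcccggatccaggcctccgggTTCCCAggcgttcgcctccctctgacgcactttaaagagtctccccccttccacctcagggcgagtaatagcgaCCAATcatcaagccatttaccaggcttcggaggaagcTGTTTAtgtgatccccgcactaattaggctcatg
Nes: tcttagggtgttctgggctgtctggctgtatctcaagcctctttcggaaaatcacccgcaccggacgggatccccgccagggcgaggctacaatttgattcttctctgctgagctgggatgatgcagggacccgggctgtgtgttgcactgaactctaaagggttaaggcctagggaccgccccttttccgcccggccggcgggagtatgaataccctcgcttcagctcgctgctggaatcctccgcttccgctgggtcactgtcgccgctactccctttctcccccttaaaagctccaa
Fabp7: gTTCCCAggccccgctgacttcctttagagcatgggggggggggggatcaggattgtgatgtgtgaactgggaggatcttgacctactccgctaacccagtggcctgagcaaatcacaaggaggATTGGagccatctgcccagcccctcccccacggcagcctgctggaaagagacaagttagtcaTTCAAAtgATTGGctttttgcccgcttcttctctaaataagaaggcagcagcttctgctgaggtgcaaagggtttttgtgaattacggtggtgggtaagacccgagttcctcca
Slc1a3: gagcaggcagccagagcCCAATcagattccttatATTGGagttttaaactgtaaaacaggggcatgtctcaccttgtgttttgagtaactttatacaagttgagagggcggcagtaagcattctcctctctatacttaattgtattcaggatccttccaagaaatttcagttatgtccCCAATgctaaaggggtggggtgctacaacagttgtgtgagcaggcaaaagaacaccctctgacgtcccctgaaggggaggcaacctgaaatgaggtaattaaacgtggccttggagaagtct

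The motifs were CCAAT (bound by NF-Y), TGTTTA (a forkhead core), TTTGAA (the cell cycle homology region), TGGGAA (the RBPJ core of Notch signalling), ACAATG (a SOX core), TTTGCAT (part of the POU octamer) and TTCGCG (an E2F core), searched on both strands. All 10 markers had a RefSeq window, 6 of them 1 window and 4 of them 2, which makes 14 windows. Within a window no match overlapped another. CCAAT or its reverse complement lay in 9 of the 14 windows, which belong to 8 markers, and in 37.4% of all 32851 windows. The Dbi windows overlap each other and share the same match, so that site is counted in both. In the Vim window CCAAT lay 196 bases before the start and its reverse complement 94 bases before it. The Fabp7 window held the reverse complement of TTTGAA 64 bases before the start, with that of CCAAT at 56 bases before. That was the 1 window of the 14 with TTTGAA on either strand, against 17.9% of all windows. TGTTTA lay in 2 of the 14 windows, of Emx2 and Prom1, and in 13.4% of all windows; in Emx2 it began 17 bases after the start. TGGGAA or its reverse complement was found in 5 of the 14 windows, of Emx2, Fabp7, Prom1 and Lhx2, and in 25.6% of all windows. TTCGCG was found in 1 of the 14 windows, of Lhx2, and in 4.09% of all windows. The Nes window held none of the 7 motifs, and no marker's window held ACAATG (12.6% of all windows) or TTTGCAT (4.63%). A match describes these letters in these windows and shows no binding.

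The question for these genes is whether the radial glia programme stood at another level in the brains with the FOXM1 allele. All 10 markers had a higher CPM in the transgenic than in the WT library, as did 48.4% of the 14557 genes averaging 1 CPM or more and 50.6% of the 6879 averaging 30 CPM or more, a limit chosen after the values were seen. The size differed between the markers. The filaments Vim and Nes and the homeobox gene Emx2 were at least 1.2-fold higher, and Fabp7, a lipid-binding protein, was just under that line (and past it under TMM or RLE scaling). Lhx2, Slc1a3, Glul and Pax6 had ratios from 1.003 to 1.05, and their intervals spanned 1. None of the 10 was lower in the transgenic library.

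Vim and Nes are intermediate filament proteins that run through the radial fibre, and antibodies to both are standard labels of these cells. Vim had 14163 reads in the transgenic and 10521 reads in the WT library. Its level was 793 CPM (780 to 806) in the transgenic library and 599.6 CPM (588 to 611) in WT, a ratio of 1.32 (1.29 to 1.36), the highest of the 10. Nes had 6846 reads in the transgenic and 5457 in the WT library, or 383 CPM (374 to 393) against 311 CPM (303 to 319). Its ratio was 1.23 (1.19 to 1.28). The counting intervals of the levels did not overlap between the libraries for either filament gene. How many other genes had levels without overlap was not counted, here or for the markers below. Of genes averaging 30 CPM or more, 22.5% had a ratio interval above 1 and 23.3% one below, so ratio intervals clear of 1 were common. Overlap of levels is a different criterion and has no background share here. Levels without overlap therefore do not set the markers apart from other genes. Nes is also the gene whose regulatory sequences name the Cre driver, and reads from a driver allele cannot be told apart from those of the gene in this table.

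Prom1 encodes prominin-1, a protein of the membrane protrusions at the apical surface. It had 604 reads in the transgenic and 517 in the WT library, the fewest of the 10. Its level was 33.8 CPM (31.2 to 36.6) in the transgenic library and 29.5 CPM (27.0 to 32.1) in WT, and these intervals overlapped. The ratio was 1.15 (1.02 to 1.29).

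Pax6, Emx2 and Lhx2 are homeobox transcription factors that pattern the cortical ventricular zone. Pax6 promotes neurogenesis and forms a gradient across the cortex opposite to that of Emx2. Lhx2 gives progenitors their cortical identity at the expense of the cortical hem. Emx2 had 825 reads in the transgenic and 618 in the WT library, or 46.2 CPM (43.1 to 49.5) against 35.2 CPM (32.5 to 38.1). Its ratio was 1.31 (1.18 to 1.46), as high as that of Vim, with a wider interval because of its lower count. Pax6 had 1397 reads in the transgenic and 1303 in the WT library, or 78.2 CPM (74.2 to 82.4) against 74.3 CPM (70.3 to 78.4), a ratio of 1.05 (0.98 to 1.14). Lhx2 had 6405 reads in the transgenic and 6206 in the WT library, or 359 CPM (349.9 to 368) against 354 CPM (345 to 363), a ratio of 1.01 (0.98 to 1.05). Levels of Pax6 and Lhx2 overlapped between the libraries, and those of Emx2 did not.

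Fabp7 and Dbi encode small cytosolic proteins, the brain fatty acid binding protein of radial glia and the acyl-CoA binding protein. Dbi peptides also act on GABA receptors. Fabp7 had 10873 reads in the transgenic and 8973 in the WT library, or 609 CPM (597 to 620.4) against 511 CPM (501 to 522), a ratio of 1.19 (1.16 to 1.22). Dbi had 4864 reads in the transgenic and 4288 in the WT library, or 272 CPM (265 to 280.1) against 244 CPM (237 to 252), a ratio of 1.11 (1.07 to 1.16). For both genes the levels did not overlap between the libraries.

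Slc1a3 (GLAST) takes up glutamate and Glul makes glutamine from it. Both are present in radial glia and are kept by the astrocytes that follow them. Slc1a3 had 1621 reads in the transgenic and 1588 in the WT library, or 90.8 CPM (86.4 to 95.3) against 90.5 CPM (86.1 to 95.1). Its ratio of 1.003 (0.94 to 1.08) was the lowest of the 10. Glul had 2728 reads in the transgenic and 2596 in the WT library, or 153 CPM (147 to 159) against 148 CPM (142 to 154), a ratio of 1.03 (0.98 to 1.09). Both pairs of levels overlapped. In bulk RNA, a different number of cells of a type and a different amount of RNA per cell cannot be told apart, here and for all genes below.

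**Figure D1:**
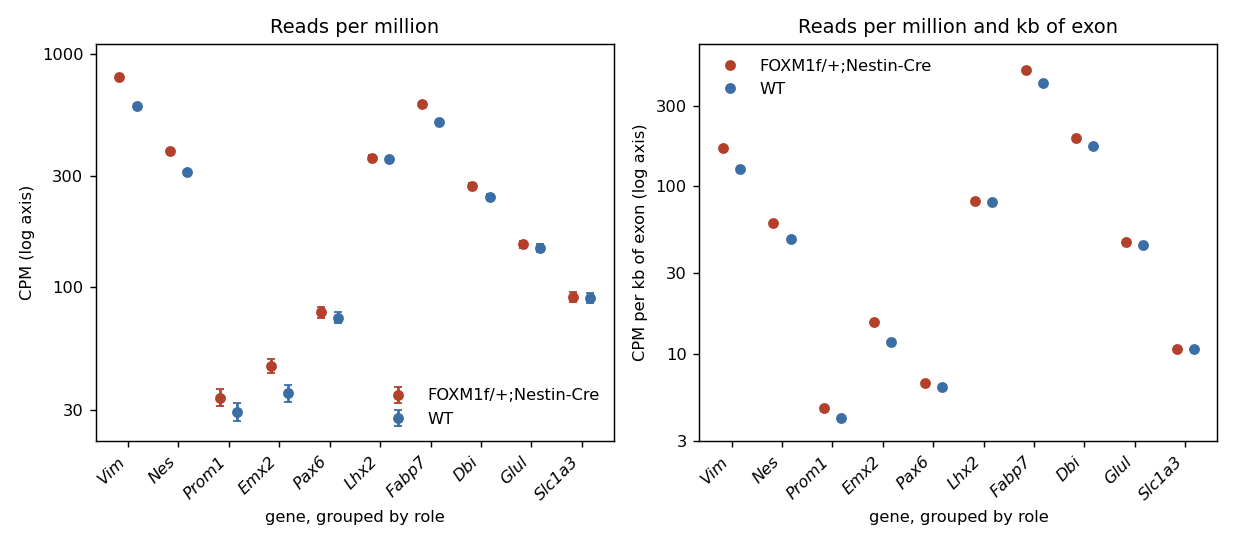
Level of each marker in the transgenic (red) and WT (blue) library, as CPM with 95% counting intervals on the left and as CPM per kb of exon on the right, both on log axes, with genes grouped by role. The red point lies above the blue one for all 10 genes, most clearly for Vim at 793 CPM in the transgenic library and 599.6 CPM in WT, while the points of Slc1a3 and Lhx2 are level.

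Levels can be compared between genes only per length, taken here as the union of all exons in GENCODE M21. On that scale Fabp7 was the most abundant marker, at 487 CPM per kb in the transgenic library and 409 CPM per kb in WT. Dbi followed at 192 and 172 CPM per kb in the transgenic and the WT library, and Vim at 167 and 126 CPM per kb. Lhx2, Nes and Glul came next, with 81.6, 59.7 and 46.0 CPM per kb in the transgenic library and 80.5, 48.5 and 44.5 CPM per kb in the WT library. Emx2 and Slc1a3 stood at 15.4 and 10.6 CPM per kb in the transgenic library and 11.7 and 10.6 CPM per kb in the WT library. The lowest were Pax6 at 6.69 and Prom1 at 4.71 CPM per kb in the transgenic library, against 6.35 and 4.11 CPM per kb in the WT library. The order of the 10 genes was the same in both libraries. Fabp7 lay above 99.6% of tested genes per length in the transgenic library and Prom1 above 44.9%. The union of exons is longest for Pax6, at 11694 bases over 26 annotated transcripts, so its value per length is a low estimate if shorter transcripts were made.

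Set against all genes, the ratios of the higher markers were near the upper end. A mean of 1 CPM or more was reached by 14557 genes, of which 11.5% were higher by at least 1.2-fold in the transgenic library and 15.7% were lower by that much. Of the 10 markers, 3 were at least 1.2-fold higher and 0 lower. At 1.1-fold the count was 6 markers, against 23.4% of tested genes, and at 1.5-fold it was 0, against 2.53%. Intervals lay wholly above 1 for 6 markers (Vim, Emx2, Nes, Fabp7, Prom1 and Dbi), below 1 for 0 and across 1 for 4, while 16.5% of all tested genes had an interval above 1 and 19.2% one below. The median log2 ratio of the markers was 0.18 (range 0.00 to 0.40), and that of all tested genes was -0.01. Ratios of weakly expressed genes scatter more, and the markers averaged between 31.6 and 696 CPM. Of the 6879 genes averaging 30 CPM or more, 4.04% passed 1.2-fold upward and 5.38% downward; 22.5% had an interval above 1 and 23.3% one below. In that range 0.741% of genes had a ratio above that of Vim, 0.872% above that of Emx2, 2.56% above that of Nes and 4.56% above that of Fabp7. At the other end 49.3% had a ratio above that of Slc1a3. Over all 14557 tested genes these shares were 5.52% for Vim, 5.79% for Emx2, 9.08% for Nes, 12.2% for Fabp7 and 47.5% for Slc1a3.

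**Figure D2:**
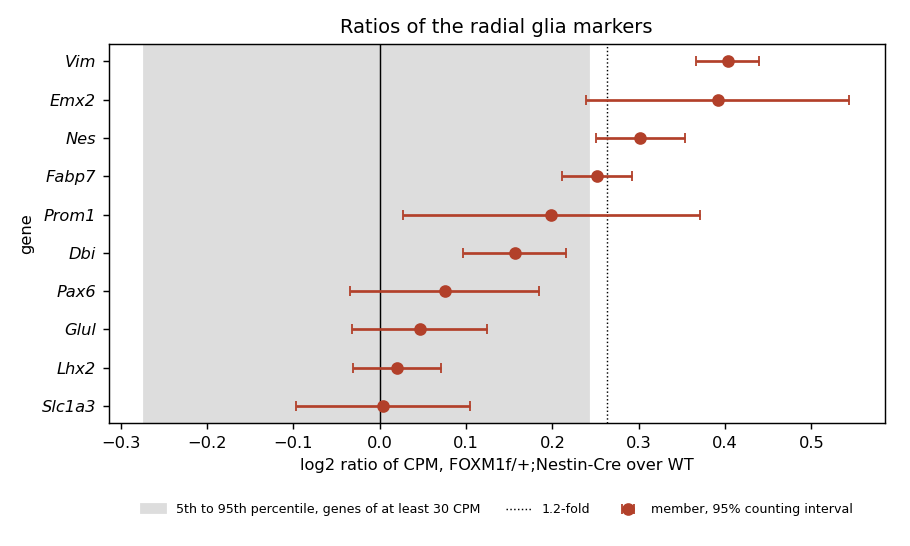
Log2 ratio of CPM, transgenic over WT, for each marker from the highest (Vim, 0.40) to the lowest (Slc1a3, 0.00), with 95% counting intervals. The grey band spans the 5th to 95th percentile of genes averaging 30 CPM or more, from -0.27 to 0.24, and the dotted line marks 1.2-fold; Vim, Emx2, Nes and Fabp7 lie beyond the band.

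**Figure D3:**
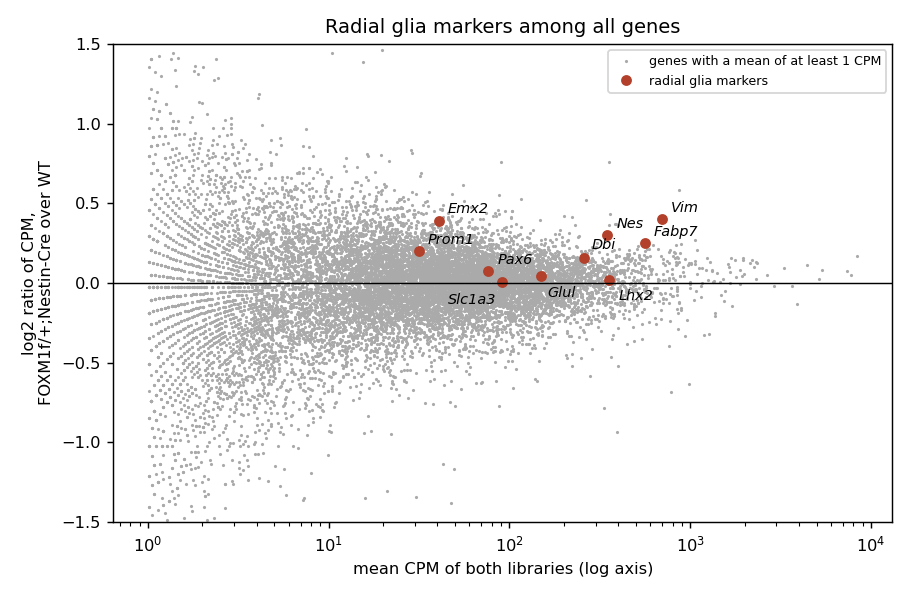
Log2 ratio of CPM, transgenic over WT, against mean CPM on a log axis, for 14420 tested genes (grey) and the 10 markers (red, named); 137 genes beyond 1.5 on the log2 scale are not drawn. The grey cloud narrows with level, and Vim, Nes and Fabp7 stand at its upper edge while Lhx2 and Slc1a3 lie on the line at 0.

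The 10 markers together took 0.282% of the transgenic reads (0.279 to 0.284%) and 0.240% of the WT reads (0.237 to 0.242%), with exact Clopper-Pearson intervals. That is a ratio of 1.18 (1.16 to 1.19). Without Vim, which held the most reads, the other 9 gave a ratio of 1.13 (1.11 to 1.14). By role, the pair of filament genes gave 1.29 (1.27 to 1.32), the lipid-binding pair 1.17 (1.14 to 1.19) and Prom1 1.15. The 3 homeobox factors together gave 1.04 (1.01 to 1.08), most of whose reads were those of Lhx2, and the glutamate pair gave 1.02 (0.98 to 1.07).

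The relation of the markers to each other does not depend on how the libraries are scaled. For each of the 45 pairs the ratio of reads within the transgenic library was divided by that within the WT library. The 95% interval, by the large-sample formula for counts, excluded 1 for 27 pairs, and for 19 pairs when widened to 99.89% for 45 comparisons. The same share for pairs of other genes was not computed. These counts, and those within a role below, therefore do not set the markers apart from other genes. Vim had 8.74 reads for each Slc1a3 read in the transgenic and 6.63 in the WT library, which differ by 1.32-fold (1.23 to 1.42). Vim had 2.21 reads for each Lhx2 read in the transgenic and 1.70 in the WT library, a difference of 1.30-fold (1.25 to 1.36).

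Markers of 1 role also differed in ratio. Emx2 had 0.591 reads for each Pax6 read in the transgenic and 0.474 in the WT library, a difference of 1.25-fold (1.09 to 1.42), and against Lhx2 it was 1.29-fold (1.16 to 1.44). Pax6 against Lhx2 gave 1.04 (0.96 to 1.13). Vim had 2.07 reads for each Nes read in the transgenic and 1.93 in the WT library, a difference of 1.07-fold (1.03 to 1.12), and Fabp7 against Dbi gave 1.07 (1.02 to 1.12). Glul against Slc1a3 gave 1.03 (0.94 to 1.12). Of these 6 pairs within a role, 4 had an interval that excluded 1 and 2, those of Emx2 with Pax6 and with Lhx2, had a widened one that did.

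**Figure D4:**
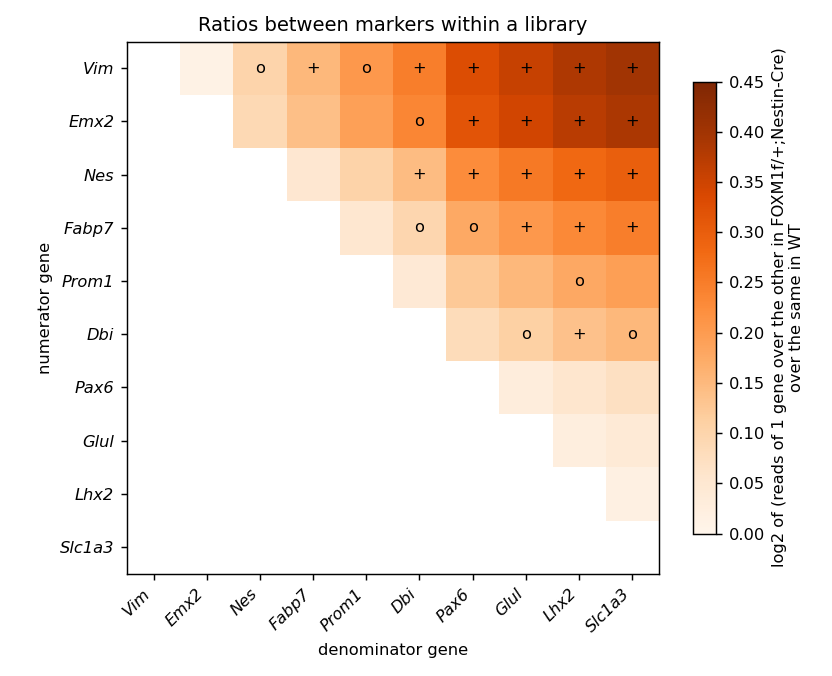
Log2 of the ratio of reads of the numerator gene (rows) to the denominator gene (columns) in the transgenic library over the same in the WT library, with genes in order of their ratio, so that all values are positive. A circle marks a 95% interval that excludes 1 and a plus sign one widened for 45 pairs, 27 pairs in all; the marks fill the upper right, where Vim, Emx2, Nes and Fabp7 meet Pax6, Glul, Lhx2 and Slc1a3.

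Some marker genes overlap other annotated genes, and no source used here gives the strand setting of the counting. Emx2os, the RNA transcribed from the opposite strand beside Emx2, shares 264 exonic bases with it. Emx2os had 100 reads in the transgenic and 65 in the WT library, a ratio of 1.51 (1.095 to 2.10). Without strand, reads of the shared stretch cannot be assigned to one of the pair. Its end at 59458635 of chromosome 19 lies inside the Emx2 window printed above. Gm16401 shares 424 exonic bases with Prom1 from the opposite strand, with 15 reads in the transgenic and 11 in the WT library. Teddm2 shares 116 exonic bases with Glul, with 29 reads in the transgenic and 35 in the WT library. Pax6os1 (16 reads in the transgenic and 20 in the WT library) overlaps the span of Pax6 and none of its exons. Each of these partners had far fewer reads than the marker.

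Other genes of apical radial glia were read from a fixed list. All 15 were tested, and 12 had a ratio above 1; 7 passed 1.2-fold upward, 0 downward, and the median log2 ratio was 0.20. Tead2, a transcription factor of the Hippo pathway, was the most abundant of the list, with 253 CPM in the transgenic library and 190.0 CPM in WT, a ratio of 1.33 (1.27 to 1.39). Sox2, which keeps the progenitor state, had 209.5 CPM in the transgenic library and 185 CPM in WT, a ratio of 1.13 (1.08 to 1.19). The 3 with ratios below 1 were Hes1, Rfx4 and Mfge8; the interval lay wholly below 1 for Mfge8, at 0.86 (0.81 to 0.91), and spanned 1 for Hes1 and Rfx4.

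The apical belt of junction and polarity proteins holds radial glia to the ventricle. Of 18 listed names 16 were found and tested, with 1 past 1.2-fold upward and 1 downward, and a median of 0.07. Ctnnb1, which encodes beta-catenin of the adherens junction, had 546 CPM in the transgenic library and 522 CPM in WT, a ratio of 1.05 (1.02 to 1.08). Cdc42, a GTPase of the polarity complex, had a ratio of 0.99 (0.95 to 1.02). The gene past the fold upward was Crb1, with 102 reads in the transgenic and 44 in the WT library, and the one past it downward was Pard6b, with 201 reads in the transgenic and 260 in the WT library; both were named after their values were seen.

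Relatives of the filament, lipid and glutamate markers were read from lists of their own. Of 7 other intermediate filament genes tested, 1 passed 1.2-fold upward and 3 downward, with a median of -0.15. Ina, a neuronal filament, had 498 CPM in the transgenic library and 495 CPM in WT, and Nefm, a neurofilament of axons, had 48.0 and 60.7 CPM in the transgenic and the WT library, a ratio of 0.79 (0.72 to 0.87). Of 11 fatty acid and acyl-CoA genes, 1 was at least 1.2-fold higher and 2 lower, with a median of -0.05. Fabp5, the epidermal-type relative of Fabp7, had 403 CPM in the transgenic library and 383 CPM in WT, a ratio of 1.05 (1.02 to 1.09). Acbd6, an acyl-CoA binding relative of Dbi, had 70.9 CPM in the transgenic library and 91.6 CPM in WT, a ratio of 0.77 (0.72 to 0.83). Of 10 genes of glutamate and glutamine handling, 1 was at least 1.2-fold higher and 1 lower, with a median of -0.01, which turned positive under TMM (0.01) and RLE (0.02) scaling. Slc1a2, the relative of Slc1a3 that dominates in mature astrocytes, had 67.9 CPM in the transgenic library and 65.8 CPM in WT, a ratio of 1.03 (0.95 to 1.12).

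Among 14 forebrain patterning factors, 5 passed 1.2-fold upward and 1 downward, with a median of 0.12. Emx1, the cortical relative of Emx2, had a ratio of 1.17 (1.11 to 1.25). Lhx9, a relative of Lhx2 that marks the diencephalon and pioneer neurons, had 27.2 CPM in the transgenic library and 16.0 CPM in WT, a ratio of 1.70 (1.46 to 1.98). Meis2, a homeobox factor of the ventral forebrain, had a ratio of 0.95 (0.92 to 0.98).

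**Figure D5:**
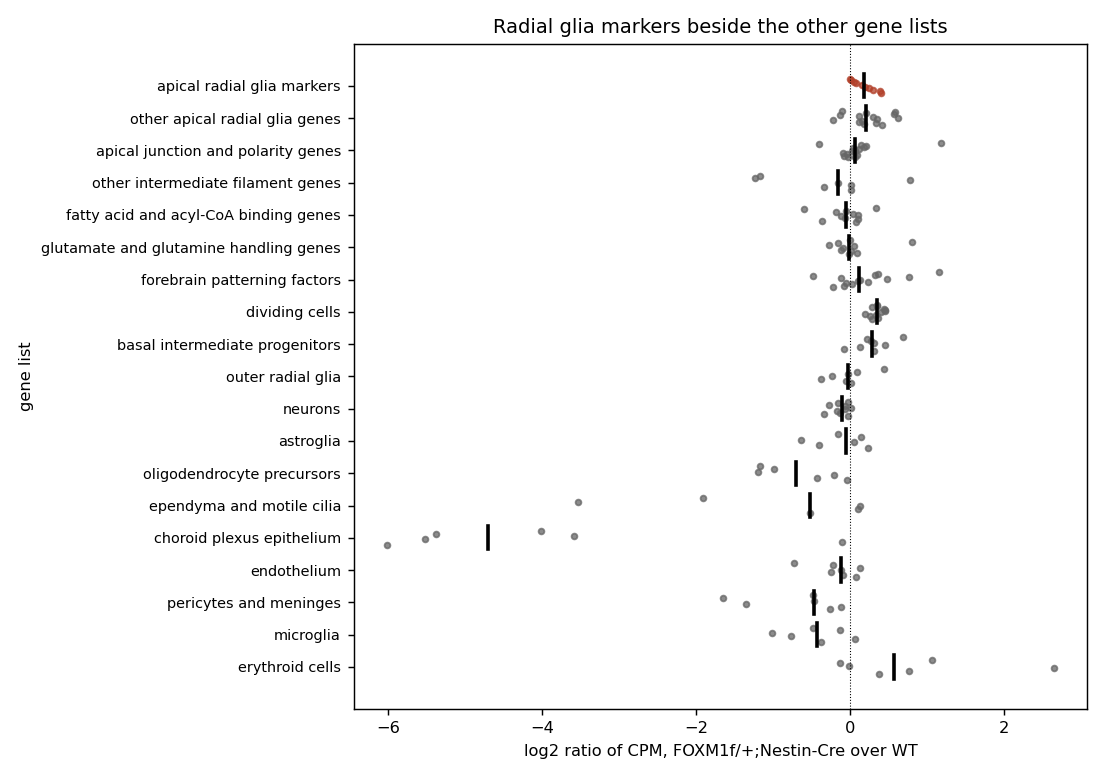
Log2 ratio of CPM, transgenic over WT, of each tested gene (points) in the radial glia markers (red) and in 18 other fixed lists (grey), with list medians as black bars. The median of the markers, 0.18, lies beside that of the other apical radial glia genes at 0.20, below those of dividing cells at 0.35 and basal progenitors at 0.29, and above that of neurons at -0.10.

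Markers of other cells in the tissue are given because several of the 10 genes are also made outside radial glia. Genes of dividing cells, a list that radial glia share with basal progenitors, were higher: 10 of 12 at least 1.2-fold, with a median of 0.35 and summed levels of 1596 CPM in the transgenic library and 1264 CPM in WT. Pcna, the clamp of DNA replication, had a ratio of 1.22 (1.17 to 1.28) and Top2a, which untangles DNA, 1.29 (1.23 to 1.34). Basal intermediate progenitor genes had 5 of 8 at least 1.2-fold higher and a median of 0.29, with sums of 943 and 816 CPM in the transgenic and the WT library. In that list Neurog2, a proneural factor, had a ratio of 1.24 (1.19 to 1.30) and Insm1, a factor of delaminating progenitors, 0.95 (0.907 to 0.997). The part of basal progenitors and of cell division in the values of the 10 markers was not tested.

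Genes of outer radial glia, the progenitors that have left the ventricle, had 1 of 7 tested genes at least 1.2-fold higher and 1 lower, a median of -0.03, and sums of 835 and 863 CPM in the transgenic and the WT library. Pea15a, their most abundant gene, had a ratio of 1.01 (0.98 to 1.03), and Ptprz1 0.96 (0.92 to 1.01). Neuron genes had 0 of 10 at least 1.2-fold higher and 2 lower, a median of -0.10, and sums of 7701 and 8226 CPM in the transgenic and the WT library. Tubb3, a neuronal tubulin, had a ratio of 0.99 (0.973 to 0.997) and Mapt, the tau protein, 0.79 (0.78 to 0.81). A lower share of reads from neurons raises the CPM of all other genes; how much of the markers' ratios this makes was not tested.

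Slc1a3, Glul and Dbi are also astroglial genes, and the astroglia list had 0 of 6 tested genes at least 1.2-fold higher and 2 lower, with a median of -0.06 and sums of 433 and 439.8 CPM in the transgenic and the WT library. Aldoc had a ratio of 1.18 (1.13 to 1.24) and Apoe 0.76 (0.70 to 0.82). The mature markers Aqp4 and S100b were below the minimum of 1 CPM. Oligodendrocyte precursor genes had 4 of 6 at least 1.2-fold lower and a median of -0.71, with sums of 68.6 and 87.9 CPM in the transgenic and the WT library; Olig2 had a ratio of 0.98 (0.87 to 1.096) and Olig1 0.75 (0.64 to 0.87).

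Vim and Nes are made in vessels and meninges too. Endothelial genes had 0 of 7 at least 1.2-fold higher and 1 lower, a median of -0.12, and sums of 205 and 213 CPM in the transgenic and the WT library; Slc2a1 had a ratio of 1.05 (0.98 to 1.14) and Cldn5 0.94 (0.85 to 1.03). Pericyte and meningeal genes had 4 of 6 tested genes at least 1.2-fold lower, a median of -0.47, and sums of 83.3 and 108 CPM in the transgenic and the WT library; Rgs5 had a ratio of 0.84 (0.77 to 0.92) and Pdgfrb 0.92 (0.79 to 1.07). The part of vessels and meninges in the values of Vim and Nes was not tested. Microglia genes had 4 of 6 at least 1.2-fold lower, a median of -0.43 and sums of 28.7 and 37.8 CPM in the transgenic and the WT library, with Csf1r at 0.77 (0.64 to 0.94) and C1qa at 1.05 (0.81 to 1.36).

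Prom1 is also found on ciliated ependymal and plexus cells. Ependymal and motile cilium genes had 3 of 5 tested genes at least 1.2-fold lower, a median of -0.52, and sums of 50.6 and 60.2 CPM in the transgenic and the WT library; Foxj1 had a ratio of 0.70 (0.60 to 0.81) and Ccdc40 1.08 (0.92 to 1.25). Choroid plexus genes had 5 of 6 at least 1.2-fold lower and a median of -4.70; Ttr had 177 reads in the transgenic and 11255 in the WT library, while Otx2 had a ratio of 0.93 (0.77 to 1.13). Erythroid genes had 4 of 6 at least 1.2-fold higher and a median of 0.57. Their sums were 1149 and 717 CPM in the transgenic and the WT library, with Hbb-bs at 1.29 (1.25 to 1.34) and Hba-a1 at 1.70 (1.64 to 1.76). Hbb-y had 3194 reads in the transgenic and 499 in the WT library, a ratio of 6.29 (5.72 to 6.92). Intervals spanned 1 for Hbb-bt, at 0.995 (0.92 to 1.08), and Alas2, at 0.92 (0.77 to 1.09). Hbb-y, Hbb-bt and Alas2 were named after their values were seen. No listed gene of any of these cell types that is in the table was at 0 reads in either library. The part of plexus, blood or sex content in the markers' ratios was not tested.

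The gene ontology terms in the deposited table were sparse for the markers. Brain development was the term most of them shared among biological processes, held by Emx2, Nes, Pax6 and Lhx2 and by 1.31% of all tested genes. Of these 4, Emx2 and Nes were at least 1.2-fold higher and Pax6 and Lhx2 were not. Glutamate binding was held by Glul and Slc1a3 and by 7 tested genes in all. Of the 10 markers, 0 were marked as significant in the authors' deposited table. That mark cannot rest on the deposited p-values alone, since markers with very small ones, such as Vim, were also unmarked. It is therefore no sign that the markers were alike in the libraries, and the share of all genes so marked was not counted. The deposited fold changes of the markers, from 1.003 for Slc1a3 to 1.32 for Vim, were the same ratios of CPM.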

How the data were processed

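RNA from brain samples was sequenced, and the study's 4 samples fall into 2 genotype groups by their genotype label. Per the labels' protocols, 2 ug of Trizol-extracted total RNA entered each library. Per the submitters' processing notes, the tools were TopHat2 2.0.12, Bowtie2 2.2.3 and HTSeq 0.6.0, and the build mm9; strand and multi-mapping settings are not given in those notes or the labels. The coordinates in the table are those of GRCm38: of 20388 identifiers in GENCODE M21, 18699 had the same start, end and strand, all 10 markers among them. Per the file headers, the deposited table gives raw read counts and normalized values, 1 column each per genotype. The normalized values deposited by the authors are CPM: each is the count over a constant total, with a count of 0 entered as 0.5 reads. The deposited fold column is the ratio of these CPM, and the deposited log2 column its logarithm. The deposited p-values compare 1 column with 1 column by a test not given in the sources used here. Those p-values were used only in the remark on the authors' significance mark, and no result rests on them.

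Ratios were computed from the counts and the totals behind the CPM, 17859653 reads in the transgenic and 17547268 in the WT library, with exact conditional intervals. Genes averaging 1 CPM or more entered the counts over all genes. With 1 library per genotype no test between genotypes and no edgeR or DESeq2 model could be run. The markers, the gene lists and the 1.2-fold line were chosen with earlier results of these data known. Named genes were all markers, the 2 most abundant genes of each list, relatives of markers, and antisense partners; genes beyond these are said to be chosen after their values were seen, or are those of a small count. One gene that this rule names is not reported here. The alternatives were TMM, RLE and upper-quartile scaling, totals without plexus, globin, mitochondrial and sex-linked genes, other folds and minimums, and a 99% interval. The ratio procedure was run on simulated reads that held counting error only, with no spread between embryos. That run checks the calculation of the intervals and not the ratios reported here. Python 3.11.15, NumPy 2.4.6, pandas 2.3.3, SciPy 1.17.1, Matplotlib 3.10.9, R 4.3.3 and edgeR 4.0.16 (scaling factors only) were used.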

Additional observations from a re-analysis of the deposited data

How the results depend on the processing

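The 4 other scalings shifted every log2 ratio by between -0.00193 (upper quartile) and 0.0255 (RLE), and all 40 marker ratios stayed inside their counting intervals with no change of sign. The median of all tested genes moved by less than 0.1 on the log2 scale in each. Across them 3 or 4 markers were at least 1.2-fold higher, 4 under TMM and RLE, and 6 had an interval above 1 (5 at 99%, without Prom1). The 1.2-fold line decides the count: 6 markers passed 1.1-fold and 0 passed 1.5-fold. With 23.4% of all tested genes past 1.1-fold, that looser count has a larger background. Of 72 list medians under other scalings, 2 changed sign, both of the list of glutamate and glutamine handling. Levels rest on 517 reads or more per marker and library. Counting error was widest for the markers with the fewest reads, Prom1 at 1.15 (1.02 to 1.29) and Emx2 at 1.31 (1.18 to 1.46). The unmeasured spread between embryos limits all of these values as well. No paired analysis was possible because the table holds 1 column per genotype. Leaving out a replicate was not possible for the same reason.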
